A study of Mus musculus with 16 samples.

Results

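Transcript levels of 44 genes that take up, activate and burn fatty acids were followed in *gastrocnemius* muscle of 16 mice, a calf muscle made mostly of fast fibres. The 44 genes were listed by symbol for their known roles, with earlier results of these data known, and were taken from a table of 24454 genes. All 44 had a row, and all 44 were among the 15487 genes that passed the filter on low counts. A separate library was sequenced from each mouse, all mice were 3 months old, and the numbers give counts of sequencing reads per gene. The control strain was FVB/N. HSALR mice are homozygous for a transgene on this background that carries the human skeletal actin gene with a long expanded CTG repeat, and they serve as a model of myotonic dystrophy type I. The transgene is expressed in skeletal muscle, so that the HSALR mice model the repeat in muscle fibres and not in other cells. They come from a single transgenic line, so that effects of the repeat and of this line cannot be told apart. Mice of each strain received vehicle or AICAR, a compound that is taken up by cells and activates AMP-activated protein kinase (AMPK), at 500 mg/kg over 7 days. There were 3 FVB mice after vehicle (S445, S446 and S450), 3 FVB mice after AICAR (S447, S448 and S449), 5 HSALR mice after vehicle (S451, S452, S453, S458 and S459) and 5 HSALR mice after AICAR (S454, S455, S460, S462 and S463).

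Fatty acids reach a muscle fibre from lipoproteins that are cleaved in the capillaries, cross the membrane, and are joined to coenzyme A before they are used. Long chains then enter the mitochondrion as carnitine esters, and this entry is held back by malonyl-CoA, the product of the acetyl-CoA carboxylases. Inside, each turn of β-oxidation removes a short unit by dehydrogenation, hydration, a further dehydrogenation and thiolysis, and electrons are passed to the respiratory chain through the electron transfer flavoprotein. AMPK phosphorylates and inhibits the acetyl-CoA carboxylases, and many genes of the pathway are known targets of the PPAR receptors, of the estrogen-related receptors and of the coactivator PGC-1α.

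Of the 44 genes, 9 were lower in HSALR than in FVB muscle after vehicle (11.5% of all genes were) and 12 after AICAR (9.64% of all genes were), and the medium-, long- and very long-chain acyl-CoA dehydrogenases were lower both after vehicle and after AICAR. *Ucp2*, an uncoupling protein, and *Acsl6*, an acyl-CoA synthetase, went the other way and were higher in HSALR muscle after vehicle. AICAR, which raised 8.4% of all genes in FVB and 13.7% in HSALR mice, raised 6 of the 44 in both strains, among them *Acacb*, the acetyl-CoA carboxylase of the outer mitochondrial membrane, and *Crat*, carnitine acetyltransferase. Over all 15487 genes tested, 1238 were called for AICAR in both strains. The calls of the 6 in FVB mice were lost when only the 2 FVB groups were fitted. A gene was called changed when its adjusted p in edgeR's quasi-likelihood test, corrected by the Benjamini-Hochberg method over the 15487 genes, was under 0.05. Levels are normalized CPM, the reads of a gene scaled to a common library size by TMM, and differences are log2 fold changes with their standard error (SE).

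After vehicle, 11 of the 44 genes differed between HSALR and FVB muscle, 2 higher and 9 lower. This was 25% of them, against 26.9% of all genes tested, so the share called was near the background. The lower calls were 20.5% of the 44, against 11.5% of all genes tested, and the higher calls were 4.55%, against 15.4%. The log2 fold change was below 0 for 31 of the 44, with a median of -0.17 beside 0.0097 over all genes tested. After AICAR, 13 of the 44 differed between the strains, 1 higher and 12 lower. That was 29.5% against 21.8% of all genes. The lower calls were 27.3% against 9.64%, and the higher calls 2.27% against 12.2%. The fold change was below 0 for 35 of the 44, and the median was -0.18 beside 0.0037 for all genes.

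In FVB mice, AICAR raised 6 of the 44 genes and lowered 0, where 10 had an unadjusted p under 0.05. This was 13.6%, against 13.2% of all genes tested called either way, 8.4% called higher and 4.77% called lower. In HSALR mice, it raised 8 and lowered 2, together 22.7% of the 44, and so under the 26.6% of all genes. The higher calls were 18.2% against 13.7% of all genes, and the lower calls 4.55% against 13%. The median log2 fold change of the 44 was 0.13 in FVB mice and 0.084 in HSALR mice, beside -0.0084 and -0.020 over all genes. With libraries scaled by their totals alone, AICAR raised 2 and lowered 0 of the 44 in FVB mice and raised 5 and lowered 3 in HSALR mice, and the higher share of all calls went from 63.8% to 50.7% and from 51.3% to 30.9%. The AICAR effect in HSALR mice minus that in FVB mice was called for 0 of the 44 genes by edgeR, with 3 at an unadjusted p under 0.05, and for 1 by DESeq2. Over all genes this difference was called for 0.691%. The comparisons within a strain and within a treatment use the same 4 groups, so that a gene's values in one FVB or HSALR group enter more than 1 comparison.

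**Figure D1:**
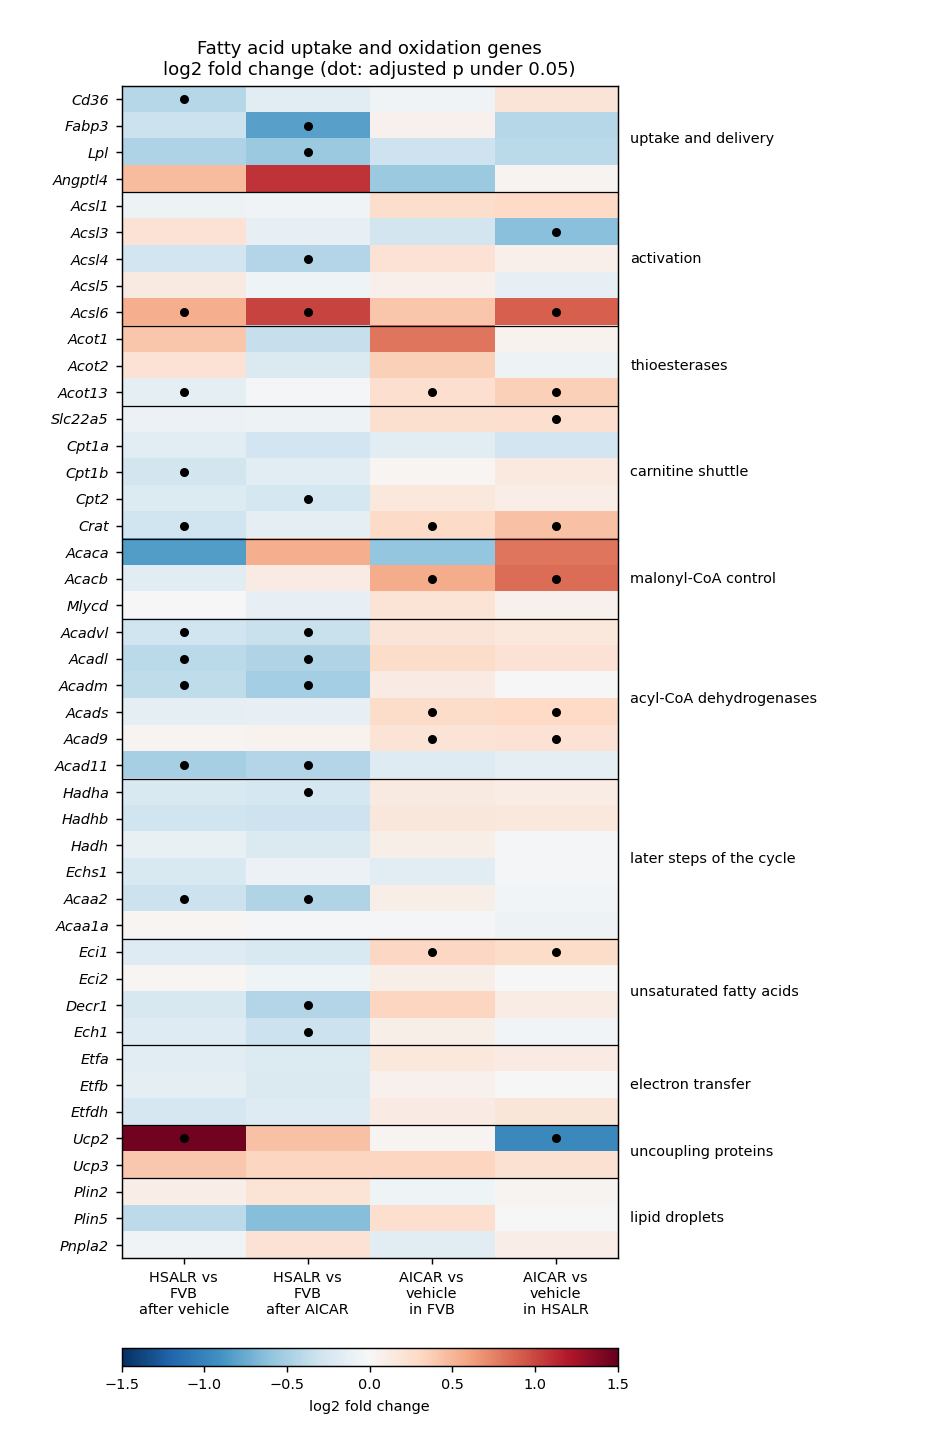
Log2 fold changes of the 44 genes (rows, grouped by role) in 4 comparisons (columns), red for higher and blue for lower, with a dot where the adjusted p was under 0.05. Blue fields prevail in the left pair of columns, where 9 and 12 genes were called lower, and the dots of the right pair are mostly on red fields, with 6 and 8 genes called higher.

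The number of calls depended on single mice. After vehicle, 11 calls became 5 without FVB mouse S445, 20 without S446, 7 without S450, 6 without HSALR mouse S453 and 7 without S458. After AICAR, 13 calls became 5 without FVB mouse S447 or S448, and 8 without HSALR mouse S454, S455 or S463. For AICAR in FVB mice, 6 calls became 3 without S446, S447, S448 or S449 and 4 without S450, and 0 when the HSALR libraries were left out of the fit. The 20 without S446 added *Lpl*, *Acsl4*, *Hadha*, *Hadhb*, *Echs1*, *Eci1*, *Decr1*, *Etfa* and *Etfdh*, all lower in HSALR muscle. Without FVB mouse S449, *Hadh*, *Hadhb*, *Eci1* and *Etfb* were called lower and *Acacb* higher in HSALR mice after AICAR. For AICAR in HSALR mice 10 to 12 genes were called whichever mouse was left out, among them all 10 called in the 16 mice. DESeq2 called further genes in the 16 mice: *Lpl*, *Hadha*, *Hadhb*, *Echs1*, *Decr1* and *Etfdh* lower in HSALR muscle after vehicle, *Crat*, *Hadhb*, *Eci1* and *Etfb* lower after AICAR, *Acsl6*, *Decr1* and *Slc22a5* raised by AICAR in FVB mice, and *Lpl* lowered by AICAR in HSALR mice. Calls named without a tool in what follows are those of edgeR with all 16 mice. The medians of the 44 genes lay between -0.22 and -0.12 for the strains after vehicle, between -0.23 and -0.14 after AICAR, between 0.070 and 0.20 for AICAR in FVB mice, and between 0.053 and 0.15 for AICAR in HSALR mice, whichever mouse was left out.

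Between 64890014 and 81987726 reads were counted per library. The 8 fibre markers, among them creatine kinase and the myosin heavy chains, summed to between 105555 and 149964 CPM in every library, which fits the labelled tissue. Some marker transcripts of the cells between the fibres and of the fibre types differed between the strains. Of 6 endothelial markers, 5 were lower in HSALR muscle after vehicle (*Pecam1* by a log2 fold change of -0.47, *Kdr* by -0.59), and their sum was 268 to 298 CPM in FVB and 179.9 to 229.9 in HSALR mice, without overlap. After AICAR 2 of the 6 were lower in HSALR mice, and in HSALR mice AICAR raised *Pecam1* (0.31) and *Emcn* (0.50). Of the slow fibre markers, *Myh7* (-1.37) and *Tnnt1* (-1.03) were lower in HSALR muscle after vehicle. Their sum was 5955 CPM in FVB mouse S450, against 1926 and 2092 in the other FVB mice and 1144 to 1663 in the HSALR mice. *Myh1*, the myosin of fast IIx fibres, was higher in HSALR muscle after vehicle (1.52), and was called higher after AICAR too. The myosins *Myh4* (-0.34) and *Myh2* (-0.28) were not called between the strains after vehicle. After AICAR *Myh4* was lower in HSALR muscle (-0.67), while *Myh7* (-0.68), *Tnnt1* (-0.71) and *Myh2* (-0.004) were not called. Of 5 macrophage and leukocyte markers, *Cd68* (0.77) and *Csf1r* (0.47) were higher in HSALR muscle after vehicle. In HSALR mice AICAR lowered *Csf1r* (-0.32) and raised *Mrc1* (0.39). The 8 adipocyte markers summed to between 201 and 492 CPM, and 0 of them were called in any comparison. Of 4 epidermal markers, 3 were called lower in HSALR than in FVB mice after AICAR. In HSALR mice 4 were called lower after AICAR than after vehicle. The strain difference after AICAR rested on FVB mouse S448, where the sum was 122 CPM. It was 2.08 in S447, 2.16 in S449, and 2.26 to 2.84 CPM in HSALR mice after AICAR. After vehicle the sum was 2.01, 2.31 and 97.3 CPM in FVB mice and scattered from 3.30 to 220.3 CPM in HSALR mice. Fewer cells of a type and less RNA per cell cannot be told apart in bulk muscle. The part of these cells in the results for the 44 genes was not tested.

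**Figure D2:**
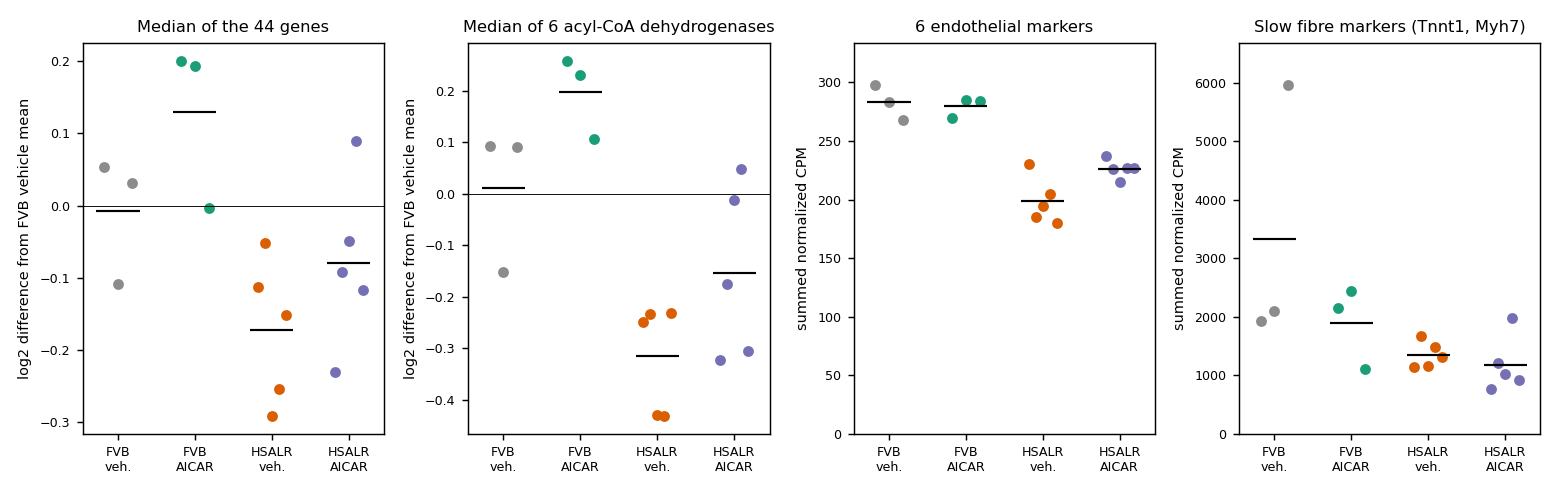
Values by mouse (points, with the group mean as a line): the median log2 difference from the FVB vehicle mean over the 44 genes and over the 6 acyl-CoA dehydrogenases, and the summed normalized CPM of the endothelial and the slow fibre markers. The endothelial sums of all HSALR mice lie below those of all FVB mice, the medians of the 44 genes overlap between the strains, and FVB mouse S450 stands alone at 5955 CPM of slow fibre markers.

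Of 6 nuclear receptors and coactivators known to control the pathway, AICAR raised 3 in FVB and 4 in HSALR mice, and 1 was lower in HSALR muscle after vehicle and 3 were lower after AICAR. Of all genes, 8.4% and 13.7% were raised by AICAR in the strains, and 11.5% and 9.64% were lower in HSALR muscle. *Ppargc1a*, which encodes PGC-1α, was at 52.6, 52.3 and 56.7 CPM in FVB mice after vehicle and at 118, 171 and 222 after AICAR, a log2 fold change of 1.66 (SE 0.27, adjusted p = 0.00113). In HSALR mice it went from 51.9, 86.0, 57.3, 40.6 and 43.7 to 112, 110.4, 71.0, 80.6 and 92.4 CPM (0.74, SE 0.20, adjusted p = 0.0138). The FVB mice did not overlap, and in HSALR mice the vehicle mouse at 86.0 lay within the AICAR group. *Ppargc1a* was lower in HSALR than in FVB mice after AICAR (-0.87, SE 0.23), while after vehicle the strains differed by 0.05 (SE 0.23, adjusted p = 0.896). *Ppara*, the receptor best known for control of fatty acid oxidation, was lower in HSALR mice after AICAR, at 21.1, 18.1, 30.0, 34.2 and 25.5 against 63.8, 54.5 and 54.6 CPM (-1.16, SE 0.20, adjusted p = 0.000723). *Ppard* was raised by AICAR in FVB mice (0.62) and in HSALR mice (0.34), and so was *Esrra*, the estrogen-related receptor α (0.28 and 0.20), which was lower in HSALR than in FVB mice after AICAR (-0.23). *Rxra*, the partner with which PPAR receptors bind DNA, was lower in HSALR muscle after vehicle (-0.45, SE 0.09) and raised by AICAR in HSALR mice (0.23). *Ppargc1b* was not called in any comparison, with log2 fold changes between -0.37 and 0.11. The difference between the AICAR effects was not called for any of the 6, with -1.08 (adjusted p = 0.0947) for *Ppara* and -0.92 (adjusted p = 0.206) for *Ppargc1a*.

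**Figure D3:**
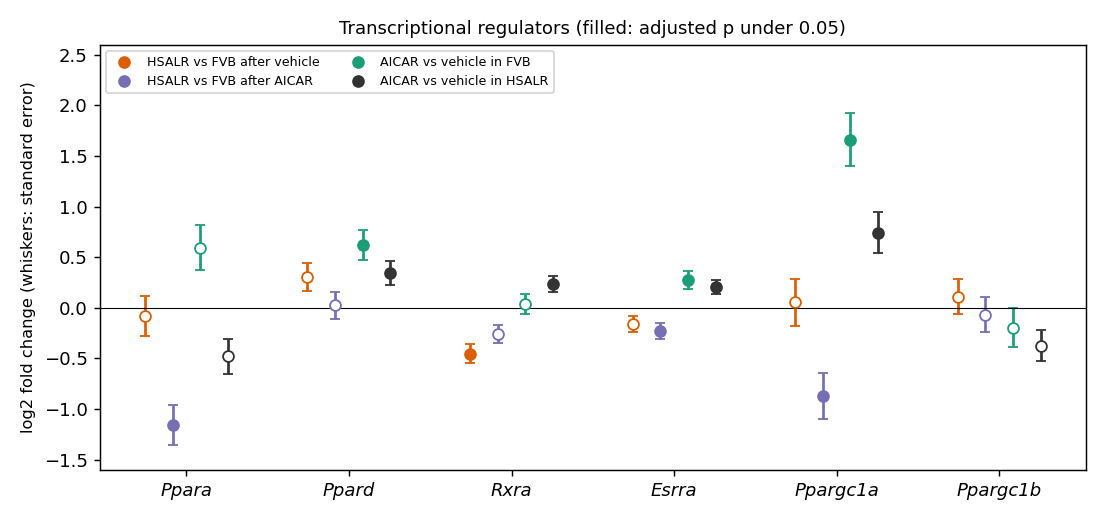
Log2 fold changes (points) with standard errors (whiskers) of 6 transcriptional regulators in 4 comparisons, filled where the adjusted p was under 0.05. The largest rise was that of *Ppargc1a* after AICAR in FVB mice, at 1.66, and the largest fall that of *Ppara* in HSALR against FVB mice after AICAR, at -1.16.

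These receptors bind variants of the letters AGGTCA. Of the 44 genes, 36 had a promoter sequence in the RefSeq table of GRCm38.p6, a window that starts before and ends after a transcript start. AGGTCA stood on either strand in 10 of the 36 (27.8%), against 18.1% of the promoters of 27025 genes. The longer AAGGTCA, which contains AGGTCA, stood in *Acacb*, *Acadm* and *Acsl6* (8.33% against 5.38%), and TCAAGGTCA, the letters of an estrogen-related receptor element, stood in *Acsl6* alone of the 36 and in 126 of the 27025. A direct repeat of the hexamer with 1 base between, the element of PPAR receptors, was in 0 of the 36 and in 0.0481% of all. Of these genes, *Acadm* was lower in HSALR muscle, *Acacb* was raised by AICAR, and *Acsl6* was higher in HSALR muscle and raised by AICAR in HSALR mice. A link between the motif and these differences was not tested. The 3 promoters with AAGGTCA are printed for the match alone. They read from 5′ to 3′ on the strand of the gene, and capitals mark the motif, which on this strand reads TGACCTT in each, with 2 further bases for the longer element of *Acsl6*. A match is a description of the letters, and binding was not measured.
Acadm promoter, chr3:153944594-153944893, minus strand: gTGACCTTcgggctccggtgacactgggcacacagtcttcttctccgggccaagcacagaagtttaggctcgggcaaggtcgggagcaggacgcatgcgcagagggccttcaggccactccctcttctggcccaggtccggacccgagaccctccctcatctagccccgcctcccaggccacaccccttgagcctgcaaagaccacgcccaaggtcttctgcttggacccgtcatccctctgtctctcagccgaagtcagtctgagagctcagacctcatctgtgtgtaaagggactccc
Acacb promoter, chr5:114165268-114165567, plus strand: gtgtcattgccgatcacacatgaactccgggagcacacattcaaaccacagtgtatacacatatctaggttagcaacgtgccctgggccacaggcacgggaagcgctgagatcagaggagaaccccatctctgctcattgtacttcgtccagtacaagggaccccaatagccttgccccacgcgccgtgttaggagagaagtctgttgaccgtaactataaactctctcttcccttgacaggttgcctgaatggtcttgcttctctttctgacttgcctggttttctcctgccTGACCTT
Acsl6 promoter, chr11:54303574-54303873, plus strand: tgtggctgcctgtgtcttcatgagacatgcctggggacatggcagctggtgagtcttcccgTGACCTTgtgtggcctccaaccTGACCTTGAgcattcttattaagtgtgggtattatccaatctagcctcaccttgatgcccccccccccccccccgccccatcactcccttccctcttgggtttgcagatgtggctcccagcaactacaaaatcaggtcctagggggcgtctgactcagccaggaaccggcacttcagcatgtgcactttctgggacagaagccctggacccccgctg
The motif lay 249 bases before the start in *Acadm*, 44 bases after it in *Acacb*, and 189 and 167 bases before it in *Acsl6*. The start used for *Acacb* lies within the gene, which has its outer end at position 114146321.

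Of the 4 genes of uptake and delivery, 1 was lower in HSALR muscle after vehicle and 2 were lower after AICAR, and edgeR called 0 for AICAR in either strain, with *Lpl* the only one that DESeq2 called. Of all genes 11.5% and 9.64% were lower in these comparisons of the strains, and with 4 genes a single call is a large share. *Cd36* (chromosome 5, 17781690 to 17888959) encodes the membrane protein that takes up long-chain fatty acids, in fibres and in capillary endothelium. It was at 439.8, 386 and 541 CPM in FVB mice and at 401, 385, 331, 274 and 308 CPM in HSALR mice after vehicle. The groups overlapped, since the FVB mouse at 386 lay below an HSALR mouse at 401. The log2 fold change was -0.42 (SE 0.15, adjusted p = 0.0456), and the call was lost without FVB mouse S445 or S450 or without HSALR mouse S453, S458 or S459, where the value stayed between -0.53 and -0.28 over all mice left out. It was also lost with library totals, with no filter and with only the 2 groups compared, and so held in 6 of 14 alternatives. After AICAR *Cd36* was at 457, 489.6 and 367 CPM in FVB and at 352, 411, 444, 425 and 309 in HSALR mice, and the difference was not called (-0.17, SE 0.15).

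*Fabp3* (chromosome 4, 130308738 to 130315463), the fatty acid binding protein of muscle cytosol, had the highest level per length of the 44 genes in FVB mice after vehicle, at a mean of 395 RPKM (reads scaled by depth and by gene length). After vehicle it was at 303, 203 and 252 CPM in FVB and at 205, 254, 184, 157 and 207 in HSALR mice (-0.33, SE 0.22, adjusted p = 0.299). The AICAR groups were at 305, 298 and 187 CPM in FVB and at 99.1, 151, 167, 209 and 125 in HSALR mice. FVB mouse S449, at 187, lay below HSALR mouse S462, at 209. The log2 fold change after AICAR was -0.81 (SE 0.22, adjusted p = 0.016), and -0.69 or lower with each mouse left out, and the call was lost without FVB mouse S447 or S448. Of the 50-base stretches of its exons, 29.2% also occur in the pseudogene *Fabp3-ps1*, and its exons overlap *Zcchc17* on the other strand, so that its counts are uncertain to that extent.

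*Lpl* (chromosome 8, 68880555 to 68906932), the lipase that frees fatty acids from lipoproteins in capillaries, was at 864, 969.6 and 600.3 CPM in FVB and at 421, 526, 592, 728 and 488 in HSALR mice after AICAR. The HSALR mouse at 728 lay above the FVB mouse at 600.3. The log2 fold change was -0.56 (SE 0.18, adjusted p = 0.0386), and it was no longer called without FVB mouse S447 or S448 or without HSALR mouse S454, S455 or S463, while the value stayed between -0.73 and -0.41. The call was lost with library totals and with only the 2 groups compared too. After vehicle *Lpl* was at 1032, 799 and 1197 CPM in FVB and at 826, 843, 681, 670.1 and 633 in HSALR mice, and the difference of -0.47 (SE 0.18) was not called at an adjusted p of 0.0689, but was called without FVB mouse S446, with only the 2 groups compared and by DESeq2. With AICAR in HSALR mice the value of *Lpl* was -0.41 (SE 0.16, adjusted p = 0.0712), not called by edgeR with all mice but called without S462, with only the 2 groups compared and by DESeq2. *Angptl4*, a secreted inhibitor of lipoprotein lipase, was low in every mouse, between 2.12 and 11.9 CPM, and was not called in any comparison. Adipocytes and endothelium also use *Lpl* and *Cd36*. The endothelial marker sum was lower in HSALR than in FVB mice both after vehicle and after AICAR, where it was 269.8 to 285 CPM in FVB and 215 to 237 in HSALR mice.

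Of the 5 acyl-CoA synthetases, which activate fatty acids, *Acsl1*, the main form of muscle, was not called in any comparison, with log2 fold changes between -0.08 and 0.30. The value of 0.30 for AICAR in HSALR mice was called without HSALR mouse S451. *Acsl6* (chromosome 11, 54303805 to 54364756), whose promoter is printed above, was called in 3 of 4 comparisons. After vehicle it was at 45.5, 33.2 and 50.7 CPM in FVB mice and at 64.6, 64.0, 64.7, 52.9 and 67.3 CPM in HSALR mice. Every HSALR mouse was above every FVB mouse, by a log2 fold change of 0.54 (SE 0.14, adjusted p = 0.00825). With AICAR it was at 55.1, 54.0 and 63.6 CPM in FVB mice and at 131, 125, 119, 89.5 and 119 CPM in HSALR mice. The groups did not overlap, and the log2 fold change was 1.02 (SE 0.14, adjusted p = 0.000129). Within HSALR mice AICAR raised *Acsl6* by 0.90 (SE 0.12, adjusted p = 7.75e-05), again without overlap. In FVB mice the change was 0.42 (SE 0.15, adjusted p = 0.078), called without FVB mouse S450 and by DESeq2, and the difference between the AICAR effects was 0.48 (SE 0.19, adjusted p = 0.25). The 3 calls were kept with each mouse left out. *Gm12224* overlaps its exons on the other strand, and whether the counting used the strand is not given in the sources used here.

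*Acsl3* (chromosome 1, 78657825 to 78707743), a synthetase of the endoplasmic reticulum and lipid droplets, was lowered by AICAR in HSALR mice. It was at 22.8, 15.0, 22.9, 16.1 and 15.7 CPM after vehicle and at 11.2, 12.5, 13.4, 12.3 and 10.6 after AICAR, without overlap (-0.62, SE 0.15, adjusted p = 0.00723). In FVB mice it was at 14.0, 12.3 and 21.5 CPM after vehicle and at 13.0, 13.9 and 12.4 after AICAR, where the mouse at 21.5 was S450. Without S450 the strains differed after vehicle, with *Acsl3* at 0.49. *Utp14b* lies on the same strand and shares 3.59% of the 50-base stretches of *Acsl3*. *Acsl4*, which prefers polyunsaturated chains such as arachidonic acid, was lower in HSALR muscle after AICAR (-0.44, SE 0.11, adjusted p = 0.0131), a call lost without FVB mouse S449, at 55.8 CPM against 48.6 and 50.5 in the others. *Acsl5* was not called in any comparison.

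The thioesterases undo this activation by freeing fatty acids from coenzyme A. *Acot13* (chromosome 13, 24817955 to 24831489), a thioesterase found at mitochondria, rose with AICAR in both strains. In FVB mice it was at 71.0, 65.1 and 68.3 CPM after vehicle and at 80.4, 82.5 and 79.5 after AICAR (0.25, SE 0.06, adjusted p = 0.00879). In HSALR mice it was at 60.4, 62.6, 58.2, 65.6 and 61.9 CPM after vehicle and at 78.1, 78.7, 74.6, 83.1 and 80.6 after AICAR (0.36, SE 0.04, adjusted p = 4.36e-05). Neither pair of groups overlapped, and both calls were kept with each mouse left out, but the FVB call was lost with library totals and with only the 2 groups compared. Between the strains it was slightly lower in HSALR muscle after vehicle (-0.14, SE 0.05, adjusted p = 0.0452), a call lost without FVB mouse S445 or S450 or HSALR mouse S451, S453 or S459, and with library totals, no filter or only the 2 groups compared. *Acot1*, a cytosolic enzyme, and *Acot2*, its mitochondrial relative, were not called. *Acot1* was at most 3.70 CPM in FVB mice after vehicle and at 7.18, 5.77 and 3.84 after AICAR (0.80, SE 0.40, adjusted p = 0.206). Of the stretches of *Acot1* 19.2% and of those of *Acot2* 27.7% are shared, mostly with each other.

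Of the 5 genes of the carnitine shuttle, 2 were lower in HSALR muscle after vehicle and 1 after AICAR, and AICAR raised 1 in FVB mice and 2 in HSALR mice. The shares of all genes were 11.5% and 9.64% lower, and 8.4% and 13.7% raised. *Crat* (chromosome 2, 30400476 to 30416017), which moves acetyl groups between coenzyme A and carnitine, was lower in HSALR than in FVB mice after vehicle and rose with AICAR in both. It was at 758, 715 and 695 CPM in FVB mice and at 580.4, 636, 552, 541 and 617 in HSALR mice after vehicle (-0.30, SE 0.06, adjusted p = 0.00213). After AICAR it was at 866, 837 and 939 CPM in FVB mice (0.28, SE 0.07, adjusted p = 0.0151) and at 794, 802, 786, 826 and 757 in HSALR mice (0.44, SE 0.05, adjusted p = 5.63e-05). None of these 3 pairs of groups overlapped. The call for AICAR in FVB mice was lost without S450 or S449, with values between 0.24 and 0.32, and with only the 2 groups compared.  *Dolpp1* overlaps the exons of *Crat* on the other strand.

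*Cpt1b*, the muscle form of the enzyme that makes carnitine esters at the outer membrane, was lower in HSALR muscle after vehicle, at 253, 275, 218, 229 and 248 against 306, 283 and 302 CPM (-0.28, SE 0.08, adjusted p = 0.0227). The groups did not overlap, and the call was lost without FVB mouse S445 or S450 or HSALR mouse S453 (values between -0.34 and -0.24). A read-through gene, *Gm44502*, shares 78.6% of the 50-base stretches of *Cpt1b*. *Cpt2*, which reverses the reaction at the inner membrane, was lower in HSALR muscle after AICAR (-0.26, SE 0.09, adjusted p = 0.0398), and the call was lost without any of the 3 FVB mice or without HSALR mouse S454, S455 or S463. *Slc22a5*, the carnitine transporter of the cell membrane, was raised by AICAR in HSALR mice (0.25, SE 0.06, adjusted p = 0.0111) and was not called by edgeR in FVB mice (0.24, SE 0.08, adjusted p = 0.0747), where DESeq2 called it. With libraries scaled by their totals only, the HSALR call was lost, and 26.3% of its stretches are shared, mostly with *Slc22a21*. *Cpt1a*, the liver form, was at 7.37 to 16.4 CPM and was not called.

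Malonyl-CoA, the inhibitor of the shuttle, is made by *Acaca* and *Acacb* and removed by *Mlycd*. *Acacb* (chromosome 5, 114146321 to 114250761), the form at the mitochondrial surface, was raised by AICAR in both strains. In FVB mice it was at 399, 374 and 387 CPM after vehicle and at 474, 512 and 720.3 after AICAR (0.56, SE 0.13, adjusted p = 0.0117). FVB mouse S449, at 720.3, stood above the others, and without it the value was 0.35 and not called. The call was also lost with only the 2 groups compared. In HSALR mice it was at 376, 384, 327, 299 and 349 CPM after vehicle and at 615, 572, 587, 694 and 629.8 after AICAR, a log2 fold change of 0.84 (SE 0.10, adjusted p = 4.72e-05). In neither strain did the groups overlap. The strains differed by -0.16 after vehicle and 0.12 after AICAR, neither of which was called with all mice, and *Acacb* was called higher in HSALR mice after AICAR without S449 (0.33). *Acaca*, the cytosolic form that serves fat synthesis, was at 74.0 CPM in FVB mouse S450 against 28.8 and 29.0 in the other FVB mice after vehicle, and between 13.2 and 41.8 in HSALR mice after vehicle (-0.84, SE 0.36, adjusted p = 0.1), which was not called. With single mice left out this value ran from -1.13 to -0.23, called without HSALR mouse S451 and nearest to 0 without FVB mouse S450. The value of *Acaca* for AICAR in HSALR mice, 0.80 (SE 0.32, adjusted p = 0.077), was not called either, except without S451 or S460, and 30.4% of its stretches are shared, mostly with *Gm5182*. *Fasn*, fatty acid synthase, was also highest in S450, at 408 against 83.1 and 109 CPM. *Mlycd* was not called in any comparison, with values between 71.0 and 118 CPM.

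Of the 6 acyl-CoA dehydrogenases, which open each turn of β-oxidation, 4 were lower in HSALR muscle both after vehicle and after AICAR, and the other 2 were raised by AICAR in both strains. Of all genes 11.5% and 9.64% were lower in HSALR muscle, and AICAR raised 8.4% and 13.7%. The median log2 fold change of the 6 was -0.34 after vehicle and -0.38 after AICAR. *Acadm* (chromosome 3, 153922353 to 153944643), for medium chains, was at 479.7, 389 and 468 CPM in FVB mice and at 335, 366, 315, 321 and 367 CPM in HSALR mice after vehicle. Under AICAR it was at 522, 507 and 431 CPM in FVB and at 312, 321, 362, 394 and 325 in HSALR mice. All HSALR mice were below all FVB mice of the same treatment. The log2 fold changes were -0.39 (SE 0.09, adjusted p = 0.00703) and -0.50 (SE 0.09, adjusted p = 0.00161), and both calls were kept with each mouse left out.

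*Acadl* (chromosome 1, 66830839 to 66863309), for long chains, was at 376, 269 and 392 CPM in FVB mice and at 290.0, 283, 245, 218 and 273 in HSALR mice after vehicle. FVB mouse S446, at 269, lay within the HSALR group, and the value of -0.40 (SE 0.14, adjusted p = 0.0444) was no longer called without FVB mouse S445 or S450 or HSALR mouse S453, S458 or S459. This call was lost with library totals, no filter and only the 2 groups compared as well, and held in 6 of 14 alternatives. After AICAR it was at 439, 435 and 376 CPM in FVB and at 255, 297, 347, 360.1 and 261 in HSALR mice. These groups did not overlap (-0.46, SE 0.14, adjusted p = 0.0287), but the call was lost without S447, S448, S454, S455 or S463. With each mouse left out the values stayed between -0.55 and -0.30 after vehicle and between -0.53 and -0.40 after AICAR. *Acadvl*, for very long chains, was lower by similar amounts, -0.30 (SE 0.09, adjusted p = 0.0274) and -0.33 (SE 0.09, adjusted p = 0.0201). Its calls were lost after vehicle without S445, S450, S453 or S458 and with library totals or only the 2 groups compared, and after AICAR without S447 or S448, with values between -0.42 and -0.22 in all.

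*Acad11* (chromosome 9, 104063724 to 104127656), a dehydrogenase for very long saturated chains, had the smallest adjusted p of the 6 in both comparisons of the strains. It was at 123, 111 and 119 CPM in FVB mice and at 88.3, 82.6, 75.9, 80.2 and 90.5 in HSALR mice after vehicle (-0.49, SE 0.07, adjusted p = 7.57e-05). After AICAR it was at 102, 100.3 and 107 CPM in FVB mice and at 73.6, 76.0, 77.6, 84.4 and 70.1 in HSALR mice (-0.43, SE 0.07, adjusted p = 0.00036). The strains did not overlap under either treatment, and the calls were kept with each mouse left out. Its exons overlap *Ackr4* on the other strand and *Gm28305* on the same strand. *Acads* (chromosome 5, 115110299 to 115119346), for short chains, was instead raised by AICAR. In FVB mice it went from 109.8, 97.1 and 107 to 135, 127 and 119 CPM (0.28, SE 0.08, adjusted p = 0.0376), and in HSALR mice from 99.9, 101, 80.0, 91.2 and 101 to 117, 122, 112, 119 and 113 CPM (0.30, SE 0.06, adjusted p = 0.00315). Neither pair of groups overlapped. The FVB call was lost without any mouse of the 6 but S449, with values between 0.23 and 0.32, and with library totals or only the 2 groups compared. *Acad9*, which also serves the assembly of respiratory complex I, rose by 0.20 (adjusted p = 0.0499) in FVB and 0.21 (adjusted p = 0.00538) in HSALR mice. The FVB call for *Acad9* held in only 2 of 12 alternatives, DESeq2 and the fit without S450. It was lost without any other FVB mouse and with RLE scaling, library totals, no filter, at least 10 counts in every library and only the 2 groups. Its HSALR call was lost with library totals.

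**Figure D4:**
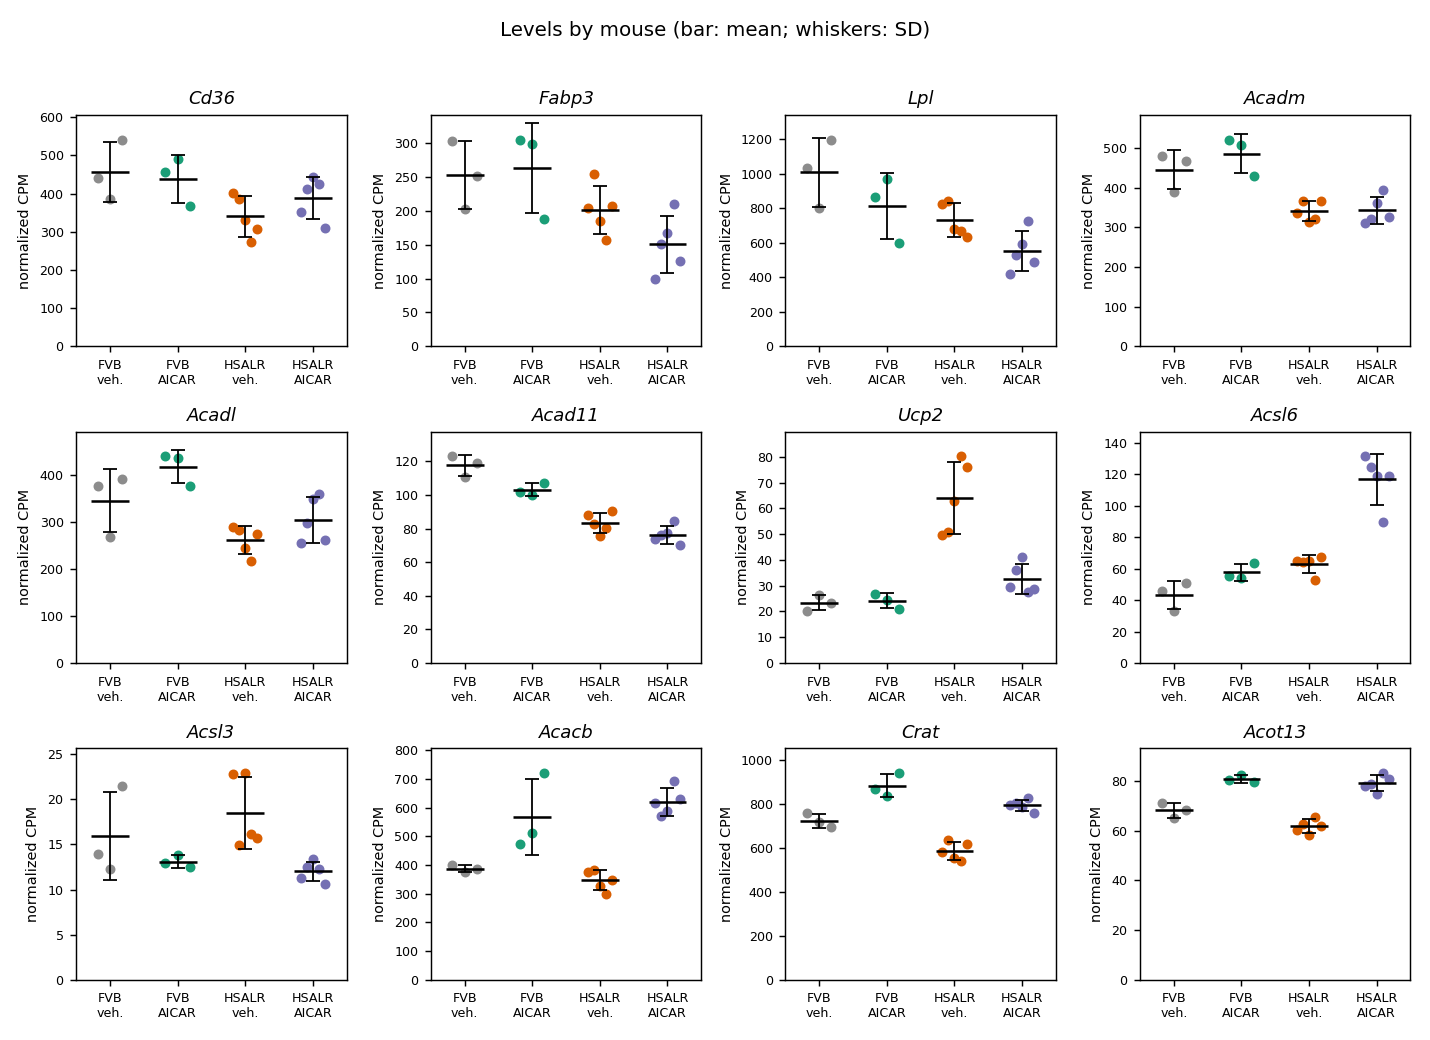
Normalized CPM of 12 of the genes by mouse (points), with the mean (bar) and SD (whiskers) of each group, on axes that start at 0. Within each treatment, HSALR mice lie below FVB mice for *Acadm* and *Acad11* and above them for *Ucp2* and *Acsl6*, and *Acacb*, *Crat* and *Acot13* are higher after AICAR in both strains.

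Of the 6 genes for the later steps of the cycle, 1 was lower in HSALR muscle after vehicle and 2 were lower after AICAR, and AICAR changed 0 in either strain. Of all genes 11.5% and 9.64% were lower in these comparisons, so that 1 of 6 is near the background. *Acaa2*, the thiolase that ends each turn, was lower after vehicle (-0.33, SE 0.11, adjusted p = 0.0464) and after AICAR (-0.45, SE 0.11, adjusted p = 0.0113). The vehicle call was lost without S445, S450, S451, S453 or S458 and with library totals or no filter, and the AICAR call without S447 or S448, with values between -0.57 and -0.21. *Hadha*, the α subunit of the trifunctional protein for long chains, was lower after AICAR (-0.26, SE 0.09, adjusted p = 0.0445), and its call was lost when any of 6 mice was left out (S447, S448, S449, S454, S455 or S463), and with no filter or only the 2 groups compared. Its partner *Hadhb* had log2 fold changes of -0.30 and -0.31 that edgeR did not call (adjusted p = 0.0626 and 0.0647). DESeq2 called both, edgeR called the first without S446 or S452 and the second without S449 or S462 and with only the 2 groups compared, and 19.7% of its stretches are shared with other genes. *Hadh* and *Echs1*, for shorter chains, were between -0.23 and -0.08 in both comparisons of the strains without a call. *Echs1* after vehicle (adjusted p = 0.0505) was called with RLE scaling, with at least 10 counts in every library and by DESeq2. It was also called without FVB mouse S446 or HSALR mouse S451. *Acaa1a*, the thiolase of peroxisomes, differed by 0.03 and -0.02.

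Unsaturated chains need further enzymes to enter the cycle, and 2 of 4 were lower in HSALR muscle after AICAR, where 9.64% of all genes were. *Decr1*, the dienoyl-CoA reductase of mitochondria, was at 222, 211 and 191 CPM in FVB and at 134, 155, 158, 175 and 143 in HSALR mice (-0.44, SE 0.09, adjusted p = 0.00403), without overlap, and this was kept with each mouse left out. *Ech1*, a dienoyl-CoA isomerase, was lower too (-0.32, SE 0.11, adjusted p = 0.0451), but the call was lost without S447, S448, S454, S455, S460 or S463, and with library totals, no filter or only the 2 groups compared. *Eci1* (chromosome 17, 24426683 to 24439316), an enoyl-CoA isomerase, rose with AICAR. In FVB mice it was at 143, 109.8 and 127 CPM after vehicle and 166, 169 and 138 after AICAR, where the groups overlapped (0.31, SE 0.09, adjusted p = 0.0366). The call was lost without S446, S450, S447 or S448, with values between 0.22 and 0.41, and with library totals or only the 2 groups compared. In HSALR mice it went from 109.8, 118, 105, 108 and 114 to 126, 131, 141, 142 and 134 CPM, without overlap (0.28, SE 0.07, adjusted p = 0.0102), a call lost with library totals. *Eci2* was not called, and its log2 fold changes between the strains were 0.02 and -0.06. The 3 genes of electron transfer, *Etfa*, *Etfb* and *Etfdh*, were all below 0 between the strains, from -0.26 to -0.15, and edgeR called them in 0 comparisons with all mice. DESeq2 called *Etfdh* after vehicle and *Etfb* after AICAR. *Etfb* shares 44.8% of its stretches, mostly with *Gm45233*.

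*Ucp2* (chromosome 7, 100493337 to 100499629), an uncoupling protein of the inner membrane that immune cells also express, had the largest genotype difference of the 44 genes. After vehicle it was at 20.4, 26.2 and 23.4 CPM in FVB mice and at 49.8, 50.7, 62.7, 80.1 and 75.9 CPM in HSALR mice. Every HSALR mouse was above every FVB mouse, and the log2 fold change was 1.45 (SE 0.18, adjusted p = 3.24e-05), a fold of 2.74. After AICAR it was at 26.8, 24.4 and 21.0 CPM in FVB and at 29.4, 36.2, 41.1, 27.7 and 28.8 in HSALR mice. These groups did not overlap either, but the difference of 0.44 (SE 0.17, adjusted p = 0.0799) was not called. AICAR lowered *Ucp2* in HSALR mice without overlap, by -0.97 on the log2 scale (SE 0.15, adjusted p = 0.000268), and the change in FVB mice was 0.05 (SE 0.19, adjusted p = 0.909). The difference between the 2 AICAR effects was -1.02 (SE 0.24, adjusted p = 0.0653), which edgeR did not call in the 16 mice. DESeq2 called it, as did edgeR without HSALR mouse S451 or S460. Of the 5 macrophage and leukocyte markers, 2 were higher in HSALR muscle after vehicle (*Cd68* and *Csf1r*), and *Adgre1* (0.09), *Ptprc* (-0.09) and *Mrc1* (-0.23) were not called. With AICAR in HSALR mice 1 of the 5 was lowered (*Csf1r*) and 1 was raised (*Mrc1*), and *Cd68* (0.08), *Adgre1* (-0.06) and *Ptprc* (0.34) were not called. The summed level of the 5 was 75.9 to 102 CPM in FVB and 90.7 to 107 in HSALR mice after vehicle and 85.4 to 123 in HSALR mice after AICAR, with overlap. Their part in the values of *Ucp2* was not tested. *Dnajb13* overlaps *Ucp2* on the other strand. *Ucp3*, the muscle form, was at 55.6 to 230.1 CPM and was not called in any comparison. *Plin2* and *Plin5*, coats of lipid droplets, and *Pnpla2*, the lipase that opens them, were not called either, except that *Plin2*, at 0.20 between the strains after AICAR, was called without HSALR mouse S460. *Plin5* had the largest values of the 3, -0.39 (SE 0.29) after vehicle and -0.64 (SE 0.29, adjusted p = 0.126) after AICAR.

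The strains were compared in different mice after vehicle and after AICAR, so that the 2 comparisons can be set side by side. Of the 44 genes, 34 had the same sign in both (77.3%), against 71% of all genes tested. *Acsl6*, *Acadvl*, *Acadl*, *Acadm*, *Acad11* and *Acaa2* were called in both, in the same direction each time, which was 54.5% of the genes called after vehicle and 46.2% of those called after AICAR. Over all genes 47.9% and 59% of the calls were made in both, and 99.1% of these genes had the same direction. Across the 44 genes, which are not independent, Pearson's r was 0.551, and across all genes it was 0.249. The value for all genes includes extreme fold changes such as those of *Krt5* (1.02 after vehicle and -9.13 after AICAR). The r of the 44 and of all genes are therefore not directly comparable. AICAR was likewise given to different mice of the 2 strains. Its log2 fold changes had the same sign for 30 of the 44 (68.2%), against 68% of all genes, and all 6 genes called in FVB mice were also called in HSALR mice, where they were 60% of the calls. Over all genes 60.7% of the calls in FVB mice were also made in HSALR mice, where they were 30% of the calls. The 6 were *Acacb*, *Crat*, *Acot13*, *Acads*, *Eci1* and *Acad9*, of which the last was called in FVB mice in few of the alternatives. Pearson's r was 0.317 across the 44 and 0.247 across all genes, with the same limit. *Acsl3*, *Acsl6*, *Slc22a5* and *Ucp2* were called by edgeR for AICAR in HSALR mice and not in FVB mice, where DESeq2 called *Acsl6* and *Slc22a5*, and edgeR called the difference between the AICAR effects for 0 of the 4 in the 16 mice, with 2 of them (*Acsl6* and *Ucp2*) at an unadjusted p under 0.05. DESeq2, and edgeR without S451 or S460, called it for *Ucp2*.

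**Figure D5:**
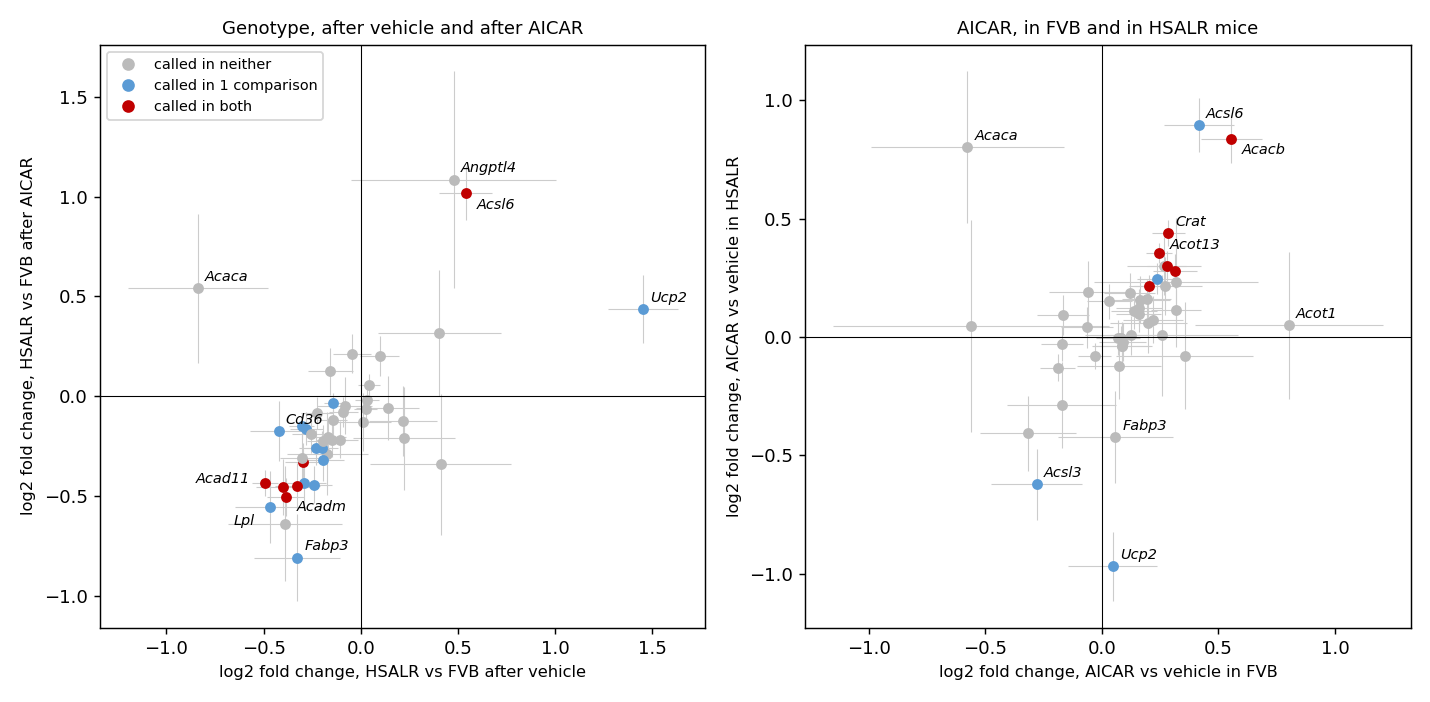
Log2 fold changes of the 44 genes with standard errors. The left panel sets the comparison of the strains after vehicle (x axis) against that after AICAR (y axis), with most genes in the lower left and *Ucp2* and *Acsl6* to the right, and the right panel sets AICAR in FVB mice (x axis) against AICAR in HSALR mice (y axis), with *Ucp2* at 0.05 and -0.97.

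Another 27 genes of fatty acid transport, peroxisomal oxidation, triglyceride storage and fat synthesis were listed beside the 44. After vehicle 6 of the 27 were lower and 1 was higher in HSALR muscle, with a median of -0.19. Either way 26.9% of all genes were called in this comparison, so that 7 of 27 is near the background. By direction, 11.5% of all genes were called lower and 15.4% higher, so that the 6 lower calls are above the background share. *Acot7*, a cytosolic thioesterase, was lower (-1.05, SE 0.10, adjusted p = 4.64e-06), at 9.14, 8.60, 7.50, 9.01 and 8.44 against 17.9, 17.2 and 18.1 CPM. *Plin3*, a coat of lipid droplets, was lower by -0.57, and *Slc27a1*, a fatty acid transporter of muscle, by -0.48. *Acot9*, a mitochondrial thioesterase, was higher (0.86, SE 0.07, adjusted p = 8.06e-07), at 39.7 to 41.8 CPM in HSALR and 21.9 to 22.8 in FVB mice. After AICAR 21.8% of all genes were called, 9.64% lower and 12.2% higher. Of the 27, again 6 were lower and 1 was higher, with a median of -0.12. Among them were *Acot7* (-0.79), *Slc27a1* (-0.53), *Acadsb* (-0.47), a dehydrogenase for branched chains, and *Acot9* (0.48).

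Of the 27, the largest called responses to AICAR were those of genes of triglyceride storage. *G0s2*, an inhibitor of the lipase *Pnpla2*, was at 39.7, 26.2 and 21.3 CPM in FVB mice after vehicle and at 56.6, 103 and 95.4 after AICAR (1.55, SE 0.34, adjusted p = 0.00843). In HSALR mice it went from 24.1, 16.4, 25.8, 44.1 and 25.9 to 140.2, 74.4, 109.6, 121 and 160.1 CPM (2.15, SE 0.27, adjusted p = 6.57e-05). *Lpin1*, a phosphatidate phosphatase, rose by 1.17 in FVB and by 1.41 in HSALR mice. In neither strain did the groups of *G0s2* or *Lpin1* overlap. In all, AICAR raised 3 and lowered 3 of the 27 in FVB mice, where 13.2% of all genes were called, and raised 5 and lowered 1 in HSALR mice, where 26.6% were. *Mgll*, a lipase for monoglycerides, was raised in FVB mice (0.42), where *Ehhadh* (-0.48) of peroxisomes, *Acot7* (-0.48) and *Acadsb* (-0.35) were lowered. *Plin3* was raised in HSALR mice (0.58), and *Acadsb* was lowered there too (-0.41). The difference between the AICAR effects was called for 0 of the 27, and the smallest adjusted p was 0.0835, for *Acot9*.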

How the data were processed

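Libraries of polyadenylated RNA from *gastrocnemius* muscle of 16 mice fell into 4 groups by their labels. The authors mapped single-end reads to mm10 with STAR 2.5.2a and assigned them to RefSeq exons with QuasR, keeping 1 location for reads with several equal ones. The deposited values are these raw counts for 24454 genes. Use of the strand in counting is not given in the sources used here.

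Entrez identifiers were matched to symbols of RefSeq GRCm38.p6 (24374 of 24454). All 16 libraries, of 64890014 to 81987726 counts, were scaled by TMM (factors 0.906 to 1.06), filtered by filterByExpr and fitted in edgeR 4.0.16 (R 4.3.3) by glmQLFit and glmQLFTest with 1 mean per group, with Benjamini-Hochberg adjustment over 15487 genes. The standard error is the size of the log2 fold change divided by the root of F. Libraries of 1 group differed by more than sampling noise (chi-square per degree of freedom 25.1 to 142). No batch or date was given. The fit was tested on simulated data.

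The 44 genes, their roles, the 27 other genes of the pathway, the 6 regulators and the markers were chosen with earlier results of these data known. Values by mouse are given for the 5 called genes with the largest log2 fold change in each comparison, and of the 27 up to 3 called genes per direction are named. Other values by mouse, and *Fasn*, were chosen after they were seen. Shared stretches are runs of 50 bases of a gene's GENCODE transcripts that also occur in another gene. Alternatives were DESeq2 1.42.0, RLE scaling, library totals, no filter, at least 10 counts in every library, fits of only 2 groups, and each mouse left out in turn.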

Additional observations from a re-analysis of the deposited data

Results flagged for a closer look

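In 100 groups of 5 mice checked for the 44 genes and the 6 regulators, 3 held a mouse far from the other 4, where chance gives about 5. *Acsl6* was at 52.9 CPM in HSALR vehicle mouse S458 and at 64.0 to 67.3 in the others, and without this mouse the difference between the strains stayed called. *Etfa* was at 240.3 CPM in HSALR AICAR mouse S462 and at 213 to 221 in the others. *Ppargc1b* was at 17.1 CPM in HSALR vehicle mouse S459 and at 10.6 to 12.3 in the others.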

How the results depend on the processing

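The median log2 fold changes of the 44 genes moved by less than the spread between mice (SD 0.106) under all 77 alternatives tried. This spread is larger than the median for AICAR in HSALR mice (0.084) and for the difference between the AICAR effects (-0.043). For these, a change of sign could also have passed, so the comparison cannot show that they were stable. Library totals moved the median of all genes for AICAR in HSALR mice from -0.020 to -0.098. For the strains after vehicle, 11 calls became 6 with library totals, 7 with no filter on low counts and 17 with DESeq2, and 5 to 20 with each mouse left out. For the strains after AICAR, 13 calls became 5 to 15 with each mouse left out. For AICAR in FVB mice, 6 calls became 2 with library totals, 0 with only the 2 groups compared and 3 to 5 with each mouse left out. For AICAR in HSALR mice, 10 calls stayed between 8 and 12. For the difference between the AICAR effects, 0 calls became 1 with DESeq2 and 0 to 1 with each mouse left out. Library totals moved the split of the calls over all genes for AICAR, from 63.8% to 50.7% higher in FVB mice and from 51.3% to 30.9% higher in HSALR mice. The 44 genes then had 2 higher and 0 lower calls in FVB mice, and 5 higher and 3 lower in HSALR mice. Of 280 alternative values of the 20 differences of genes named with their values by mouse, 230 kept direction and call, 50 kept the direction and lost the call, and 0 reversed. No paired analysis was possible because no mouse number is shared between groups. The effect of depth on the calls was not tested.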
